A study of Mus musculus with 20 samples.

Results

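Alas2, Slc4a1, Bpgm, Rhag and Ahsp are genes of the red blood cell lineage, and their transcript levels were followed in the hearts of old and young mice. The members were listed by symbol after their values in these arrays had been seen, so their age differences and their spread are given as a description, without a test. Of the 5 genes, 4 had a probe set of that symbol alone among 18193 named genes, and 3 passed the filter on low values, which left 9275 genes in all. Ahsp, which encodes the chaperone of free α-globin, was not analysed here.

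The series asked how mitochondrial gene expression changes with age, and it measured total RNA of the cardiac ventricle on Affymetrix MOE430 2.0 arrays, 1 array per mouse. All 20 mice were C57BL/6J males, an inbred laboratory strain, with no transgene or treatment named. The old group held 10 mice aged 25 to 28 months (replicates 1 to 10) and the young group held 10 mice aged 4 to 6 months (replicates 11 to 20). The values are log2 signals computed with GCRMA, on which undetected transcripts lie between about 2 and 4 and a difference of 1 is a doubling. Whether blood was flushed from the hearts before freezing is not given in the sources used here.

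Red cells form in the bone marrow and, in mice, also in the spleen. Their precursors make haemoglobin at a very high rate, expel the nucleus, and enter the blood as reticulocytes, which still carry RNA. The reticulocyte then breaks down its RNA and organelles, so the mature red cell holds little messenger RNA. Alas2 is the erythroid form of the first enzyme of haem synthesis, Slc4a1 is band 3, the chloride-bicarbonate exchanger of the membrane, and Bpgm makes 2,3-bisphosphoglycerate, which lowers the oxygen affinity of haemoglobin. Rhag is the Rh-associated glycoprotein, a membrane channel of the Rh complex. In whole tissue, a change in the number of cells of a type and a change in RNA per cell cannot be told apart.

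The arrays differed in ways that bear on the members. Of the 10 old arrays, 9 held transcripts of atrial muscle that a label of ventricle does not cover: Myl7, the atrial myosin light chain, was at 2.36 in old replicate 1, between 6.58 and 14.55 in the other old arrays, and between 2.38 and 2.44 in the young ones. None of 8 genes listed for ventricular muscle passed the test between the ages by limma, 0 also at an unadjusted p under 0.05. The 8 were Myh6, Tnnt2, Tnni3, Myl2, Myl3, Actc1, Ryr2 and Pln, and several are not particular to the ventricle. Their values therefore do not show the share of ventricle in a sample. Pln, phospholamban, at -0.13, passed limma with 5 sets of similar arrays as a block (adjusted p = 0.0467). It also passed without the filter (limma adjusted p = 0.0449). The mean of the 8 lay between 14.78 and 15.01 in old and between 14.88 and 15.03 in young arrays. RNA quality was read from the control transcripts Gapdh and β-actin as the signal at the 3′ end minus that at the 5′ end. It averaged 0.40 ± 0.10 in old arrays and 0.39 ± 0.08 in young arrays (SD over 10 arrays per age; permutation test, two-sided, p = 0.923). Old replicate 8 stood apart through genes of T cells and dividing cells. The p-values measure the spread between mice, with 10 arrays per age limiting their precision.

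The sequence just before the start of 3 members is shown because erythroid genes are commonly controlled through sites for GATA1, a zinc-finger factor of the red cell lineage. The word AGATAA was searched on both strands, as was its variant with a final G (AGATAG), and both again with a first T (TGATAA for the former, with TGATAG for the latter), within the 200 bases before the RefSeq start (GRCm38.p6). Each sequence runs 5′ to 3′ on the plus strand, which is the gene's strand, and capitals mark a word (here read on the other strand). The windows are chrX:150547217-150547416 for Alas2, chr6:34476156-34476355 for Bpgm and chr17:40810949-40811148 for Rhag.
Alas2: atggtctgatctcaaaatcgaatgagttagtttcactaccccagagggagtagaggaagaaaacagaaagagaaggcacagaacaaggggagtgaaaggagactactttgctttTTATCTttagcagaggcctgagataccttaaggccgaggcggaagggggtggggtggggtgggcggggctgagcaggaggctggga
Bpgm: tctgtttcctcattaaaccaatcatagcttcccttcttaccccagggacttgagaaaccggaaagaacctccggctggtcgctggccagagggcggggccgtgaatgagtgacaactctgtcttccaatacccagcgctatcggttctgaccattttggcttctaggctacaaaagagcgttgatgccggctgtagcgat
Rhag: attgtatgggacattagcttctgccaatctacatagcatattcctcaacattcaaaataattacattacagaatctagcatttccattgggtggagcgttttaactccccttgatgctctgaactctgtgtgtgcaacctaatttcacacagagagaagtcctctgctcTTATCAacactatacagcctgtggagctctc
The Alas2 window held AGATAA on the minus strand, 81 to 86 bases before the start, and the Rhag window held TGATAA on the minus strand, 26 to 31 bases before it. None of the 4 words was in the Bpgm window. Of all 32851 promoters of the same length, 21.4% held at least 1 of these words. The pattern CCNCNCCC, which covers CACCC boxes and some GC boxes, was in the Alas2 and Bpgm windows and in 42.6% of all promoters. These are matches of letters in short windows and say nothing of binding.

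Alas2, the first step of erythroid haem synthesis, ran from 8.21 through a median of 9.06 to 13.23 in old arrays and from 7.44 through 8.20 to 8.76 in young arrays. The high values came from 4 old arrays: 13.23 in replicate 9, 11.59 in replicate 4, 11.35 in replicate 5 and 10.82 in replicate 1. The next old array was at 9.18, which left a gap of 1.64 below the 4, and 9 of 10 old arrays were above every young array. The group means were 9.99 ± 1.64 and 8.14 ± 0.45 (SD, n = 10 each), a difference of 1.85 (SE 0.54).

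Slc4a1, the band 3 exchanger, ran from 5.16 through 5.90 to 12.87 in old arrays and from 4.79 through 5.17 to 5.96 in young arrays. The same 4 old arrays were highest, at 12.87 in replicate 9, 10.71 in replicate 4, 9.43 in replicate 1 and 8.79 in replicate 5. The remaining old arrays lay at 6.02 or less and overlapped the young ones, and the gap under the 4 high arrays was 2.77. Old arrays averaged 7.59 ± 2.68 and young arrays 5.18 ± 0.31 (SD, n = 10 each), a difference of 2.41 (SE 0.85). A second probe set of Slc4a1 repeated the order of the 4 arrays with a difference of 2.77, and the third lay between 2.65 and 2.82 on all 20 arrays.

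Bpgm, the 2,3-bisphosphoglycerate enzyme, ran from 8.75 through 9.37 to 13 in old arrays and from 8.26 through 8.65 to 8.87 in young arrays. Old replicate 9 was again highest, followed by 11.29 in replicate 4, 10.84 in replicate 5 and 10.51 in replicate 1. Below them the old arrays began at 9.47, and 9 of 10 old arrays were above every young array. Old arrays averaged 10.04 ± 1.35 and young arrays 8.59 ± 0.22 (SD, n = 10 each), a difference of 1.44 (SE 0.43). The other probe sets of the gene gave 1.67 and 1.52.

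Rhag, the Rh-associated glycoprotein, was near the floor of the scale in all young arrays, between 2.43 and 2.51. In old arrays it ran from 2.38 through 2.44 to 6.79, and replicate 9 was the only array above 4. Replicates 1 and 4 followed at 3.15 and 2.80, and replicate 5 was at 2.40. The difference of the means was 0.50, and it was 0.08 without replicate 9, so that array carried nearly all of it. Rhag did not pass the filter and was not in the fit over all genes.

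**Figure D1:**
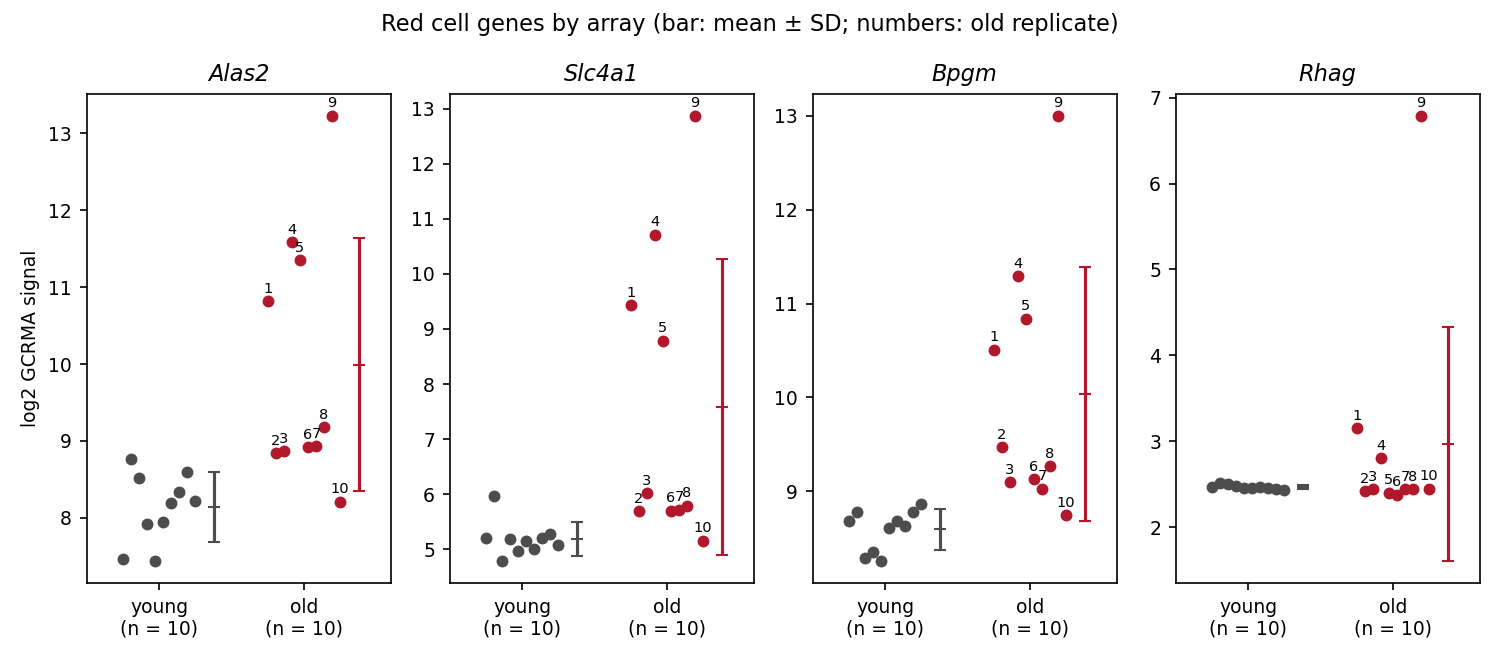
Log2 GCRMA signal of Alas2, Slc4a1, Bpgm and Rhag in each array (vertical axis; scales differ between panels), young and old side by side; each point is 1 mouse, numbers give the old replicate, and the bar is the mean ± SD (n = 10). Old replicates 1, 4, 5 and 9 lie above all other arrays for Alas2, Slc4a1 and Bpgm, and replicate 9 alone stands above 4 for Rhag.

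The size of the age difference thus depended on how the old arrays were summarised. The highest old array was 32.5-fold above the young median for Alas2, 209-fold for Slc4a1 and 20.3-fold for Bpgm. The ratio of the old median to the young median was 1.81 for Alas2, 1.67 for Slc4a1 and 1.64 for Bpgm. Without old replicates 1, 4, 5 and 9, a choice made after seeing the data, the differences of the means were 0.69 for Alas2, 0.50 for Slc4a1, 0.53 for Bpgm and -0.04 for Rhag. Leaving out replicate 9 alone gave the lowest difference of all single omissions, 1.49 for Alas2, 1.82 for Slc4a1 and 1.12 for Bpgm. No member had every old array above every young array, a pattern found in 1.36% of the 9275 genes tested.

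The spread between old mice was wide for these genes. The old SD was 3.64 times the young SD for Alas2, a ratio above that of 98.05% of the tested genes. It was 8.66 times for Slc4a1 (above 99.78%) and 6.27 times for Bpgm (above 99.56%), while the median ratio over all tested genes was 1.12. Replicates 1, 4, 5 and 9 were the 4 highest of the 20 arrays for only 33 of the 9275 genes (0.356%), and Alas2, Slc4a1 and Bpgm are among the 33.

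The 4 high arrays did not come from 1 group of similar arrays. Clustering the arrays on what remained after the group means were removed gave 5 sets of 2 old and 2 young arrays each, in which old replicate 1 lay with 2, 3 with 4, 5 with 6, 7 with 8 and 9 with 10. Each high array therefore shared its set with a low one: Alas2 was at 11.35 in replicate 5 and 8.92 in replicate 6, and at 13.23 in replicate 9 and 8.21 in replicate 10. Within the 5 sets the Alas2 difference between old and young was 1.99, 1.59, 2.45, 0.58 and 2.66, and that of Slc4a1 was 2.42, 2.99, 2.19, 0.51 and 3.92. That of Bpgm was 1.22, 1.66, 1.55, 0.44 and 2.35. The set of old replicates 7 and 8, with no high array, had the smallest difference for these 3 genes. What the sets stand for is not given in the labels.

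Among the 10 young arrays, Alas2, Slc4a1 and Bpgm varied within a range of 1.32, 1.18 and 0.60. Their values were set against each other in 3 pairs, with Pearson r from 0.379 to 0.519, and none of the 3 passed (permutation tests, 100000 resamples, Benjamini-Hochberg adjusted p = 0.279 for each; 0 of 3 at a raw p under 0.05). Alas2 and Bpgm were also set against the mean of the shared adult globin probe sets. For Alas2 r was 0.743 (permutation p = 0.0159, adjusted p = 0.0676 over 12 relations) and rho was 0.782 (p = 0.0104, adjusted p = 0.0512). For Bpgm r was 0.747 (permutation p = 0.0145, adjusted p = 0.0676) and rho was 0.855 (p = 0.00288, adjusted p = 0.0346). Without the 2 arrays farthest from the globin median, r was 0.618 for Alas2 (permutation p = 0.103) and 0.495 for Bpgm (permutation p = 0.213), and neither passed with those 8 arrays. Of the 12 relations with globin, platelet, neutrophil and RNA quality measures, 4 had a raw Pearson p under 0.05 and 0 an adjusted one. The other 2 of the 4 were Alas2 with the neutrophil genes (r = -0.739, rho = -0.77, permutation p = 0.0169, adjusted p = 0.0676) and Bpgm with RNA quality (r = 0.65, rho = 0.6, permutation p = 0.0445, adjusted p = 0.133). Without 2 arrays r was -0.251 and 0.42. Slc4a1 with the globin probe sets had r = 0.362 and rho = 0.382 (permutation p = 0.34). Within the old group no such test was made, since its arrays fall into separate groups of values.

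Globin transcripts are by far the most abundant messages of late red cell precursors. The probe sets of Hba-a1 and Hba-a2 alone lay at the floor in every array, and most signal of the adult globins came from 4 probe sets that several α- or β-globin genes share. Their mean was 14.14 ± 0.33 over old arrays and 13.78 ± 0.16 over young arrays (SD, n = 10 each), which is 0.36 higher in old (permutation test, two-sided, p = 0.00608). By this mean the 4 highest of all 20 arrays were old replicate 9 at 14.64, replicate 1 at 14.47, replicate 5 at 14.41 and replicate 4 at 14.33. The order did not hold in every probe set. In an α-globin probe set replicate 4 was at 14.40, below old replicate 8 at 14.54 and young replicate 12 at 14.51. In another it was at 14.74, as was young replicate 12, with old replicate 8 at 14.76. The globin values lie in the upper part of the scale, where differences may be compressed, which was not tested. The dimmest of the 4, an α-globin probe set, ran from 12.24 to 14.29 in old and from 11.87 to 12.89 in young arrays. Hbb-b2, a β-globin gene, had a probe set annotated to it alone, of a type that may also detect related sequences. It ran from 5.16 to 6.88 in old and from 5.13 to 5.64 in young arrays, with a difference of 0.28 (SE 0.17, limma adjusted p = 0.26).

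A wider set of 74 red cell genes, none of them a member, was listed by role, with earlier results of these data known. Counts and p-values of these lists are therefore not independent of those results. Of these, 63 had a probe set and 34 passed the filter. By limma over all 9275 genes, 7 of the 34 were higher in old hearts (20.6%, against 11.2% of all genes tested) and 4 were lower (11.8%, against 7.49%), while 18.7% of all genes passed in either direction. The median difference was 0.10 over the 34 genes and 0.01 over all tested genes. Under quantile normalization the counts were 5 higher and 6 lower, and over all genes 812 higher and 1067 lower in place of 1037 and 695. Under median centring they were 8 and 3, and over all genes 1144 and 523.

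The reticulocyte maturation list held most of the genes that were higher, 5 of 7 tested, with a median difference of 1.31. Tent5c, a cytoplasmic poly(A) polymerase, ran from 8.17 to 13.60 in old and from 7.41 to 8.86 in young arrays, and 9 of 10 old arrays were above every young one. It rose by 2.22 (SE 0.52, limma adjusted p = 0.00453). Isg20, an RNA exonuclease, ran from 6.39 to 11.94 and from 5.21 to 6.50, and rose by 2.05 (SE 0.53, limma adjusted p = 0.00906). Ube2l6, an enzyme of ISG15 conjugation, rose by 1.44 (SE 0.48, limma adjusted p = 0.0406). Mkrn1, a ubiquitin ligase, rose by 1.31 (SE 0.42, limma adjusted p = 0.0328). Bcl2l1, the survival factor Bcl-xL, rose by 0.62 (SE 0.20, limma adjusted p = 0.0383). Ube2o, which ubiquitinates proteins for removal in reticulocytes, did not pass (1.0, limma adjusted p = 0.119), although old replicate 9 reached 9.73 and no young array exceeded 5.68.

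In the iron uptake list 1 of 3 tested genes was higher: Slc25a37, mitoferrin-1, which carries iron into mitochondria, rose by 1.58 (SE 0.50, limma adjusted p = 0.0321). Tfrc, the transferrin receptor, had a difference of 0.59 and did not pass (limma adjusted p = 0.215). Among the red cell enzymes 1 of 5 was higher, Car2, a carbonic anhydrase, which rose by 1.99 (SE 0.63, limma adjusted p = 0.0303) with old values from 6.43 to 12.47 against 5.27 to 6.74. Blvrb, biliverdin reductase B, was at 0.82 and did not pass (limma adjusted p = 0.109), but did with the 5 array sets as a block (adjusted p = 0.0368). Of the 7 genes that were higher, 6 had old replicates 1, 4, 5 and 9 as their 4 highest arrays, Bcl2l1 being the exception.

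The haem synthesis list held genes that were lower. By limma none of its 9 tested genes was higher (0 also at an unadjusted p under 0.05), 3 were lower, against 7.49% of all genes, and 6 did not pass. The median difference was -0.20. Slc25a38, the mitochondrial glycine carrier, fell by 0.73 (SE 0.20, limma adjusted p = 0.0129), Alad, the second enzyme of the pathway, fell by 0.41 (SE 0.11, limma adjusted p = 0.0111), and Uros, uroporphyrinogen III synthase, fell by 0.44 (SE 0.15, limma adjusted p = 0.0401). Alad and Uros are enzymes that cells other than red cell precursors, heart muscle included, also use for haem synthesis. Which cells the lower values of the 3 genes came from was not tested. Fech, ferrochelatase, which inserts the iron, ran from 9.69 to 12.47 in old and from 9.77 to 9.97 in young arrays, and its difference of 0.44 did not pass (limma adjusted p = 0.242). Its 4 highest arrays were old replicates 9, 4, 5 and 1, at 12.47, 10.81, 10.70 and 10.47. In the membrane list 1 of 7 was lower and none higher by limma, also 0 higher at an unadjusted p under 0.05: Aqp1, a water channel of red cells that endothelium also carries, fell by 1.16 (SE 0.19, limma adjusted p = 0.000165), from 8.89 to 10.63 in old and 10.39 to 11.34 in young arrays. None of the 2 tested erythroid regulators passed limma, and 1 had an unadjusted p under 0.05.

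**Figure D2:**
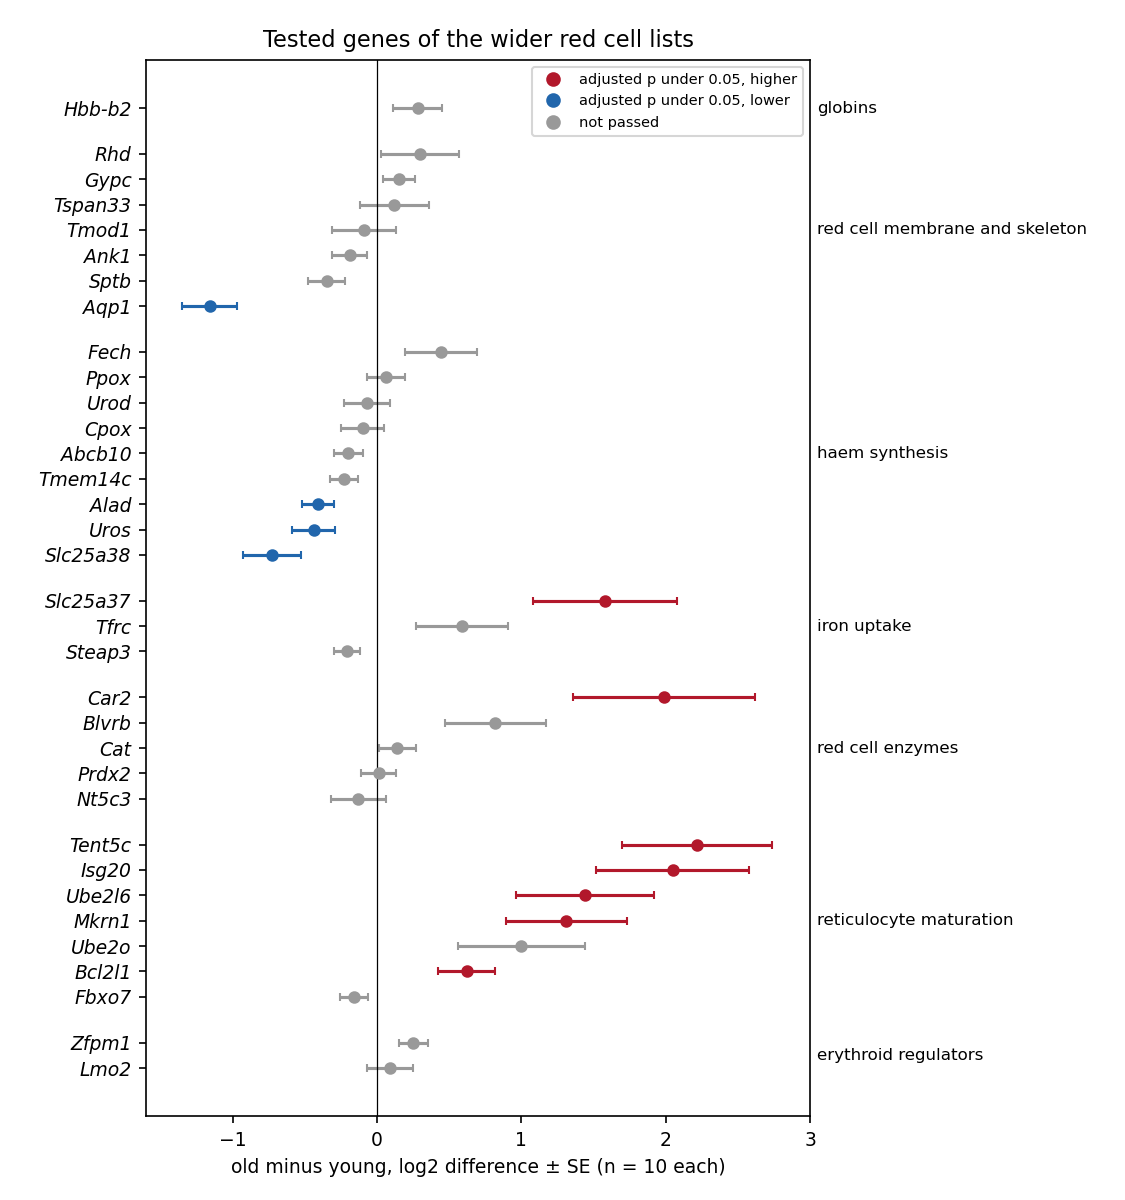
Old minus young log2 difference (horizontal axis) with its SE for the 34 tested genes of the wider red cell lists, n = 10 arrays per age, grouped by list; red and blue points passed limma's adjusted p in the higher and lower direction and grey points did not. The 5 higher genes of reticulocyte maturation lie between 0.62 and 2.22, and the 3 lower genes of haem synthesis between -0.73 and -0.41.

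The counts changed with the arrays used. Without old replicates 1, 4, 5 and 9, 2 genes were higher (Isg20 and Tent5c) and 1 was lower (Aqp1), and single omissions gave 5 to 12 genes in all, with 5 without old replicate 4, 6 without old replicate 5 and 7 without young replicate 14. Without the 4 arrays the difference was 1.0 for Tent5c, 0.84 for Isg20, 0.49 for Car2, 0.40 for Slc25a37, 0.38 for Mkrn1, 0.35 for Bcl2l1 and 0.27 for Ube2l6. For the lower genes it was -0.80 for Aqp1, -0.59 for Slc25a38, -0.37 for Alad and -0.35 for Uros. The 4 arrays were singled out by the members' high values, and 6 of the 7 higher genes were highest in the same arrays. That the higher genes lost more was therefore built into the omission. Car2 lost its call without old replicates 1 or 4 or young replicate 13, Slc25a37 without old 1, 4 or 5 or young 14, and Mkrn1 without old 4 or 5 or young 14, 15 or 16. Bcl2l1 lost it in 9 of 20 omissions, Uros in 11 and Ube2l6 in 12, and Tent5c, Isg20, Aqp1, Alad and Slc25a38 in none.

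Of the 34 tested wider genes, 9 (26.5%) had replicates 1, 4, 5 and 9 as the 4 highest of all 20 arrays, against 0.356% of all genes tested. They were Car2, Fech, Hbb-b2, Isg20, Mkrn1, Slc25a37, Tent5c, Ube2l6 and Ube2o. Old replicate 9 was the highest array for 20 of the 34 (58.8%) and for 5.41% of all genes. The old SD exceeded 3 times the young SD in 11 of the 34 (32.4%), against 3.34% of all genes. These shares are descriptions, since the arrays were singled out by the members' own values.

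Genes that few cells other than red cell precursors express were mostly at the floor. Of 20 such genes with a probe set, 2 exceeded 4 in any young array and 7 in any old array, all 7 of them in replicate 9. The shares of all genes above 4 in any young or any old array are not given here. In replicate 9 and no other array, 3 of the 20 exceeded 4, as did 60 of all 18193 genes. In replicate 8 and no other array, 192 of all genes did. Trim10, an erythroid ubiquitin ligase, was at 10.56 in replicate 9, 7.33 in replicate 4, 6.68 in replicate 1 and 4.16 in replicate 5, and between 3.06 and 3.35 in young arrays. Several genes were chosen here after their values were seen. Epb42, protein 4.2 of the membrane skeleton, was at 6.84 in replicate 9, 4.61 in replicate 1 and 4.24 in replicate 4, against at most 3.29 in young arrays. Hemgn, a nuclear protein of blood precursors, was at 5.92 in replicate 9 and at most 2.40 in the other old arrays, and Tspo2 and Kel reached 6.20 and 4.53 in replicate 9. Nfe2, a factor of red cells and megakaryocytes, was at 6.31 in that array. Klf1, Gfi1b and Car1 lay at the floor in all 20 arrays, and Gata1 reached at most 3.73. Of this kind 2 genes, Rhd and Hbb-b2, passed the filter, and limma called 0 of them, also at an unadjusted p under 0.05. Rhd ran from 4.57 to 6.92 in old and from 4.60 to 6.47 in young arrays (difference 0.30, limma adjusted p = 0.471). Its 4 highest arrays were old replicates 1 and 9 and young replicates 14 and 17.

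**Figure D3:**
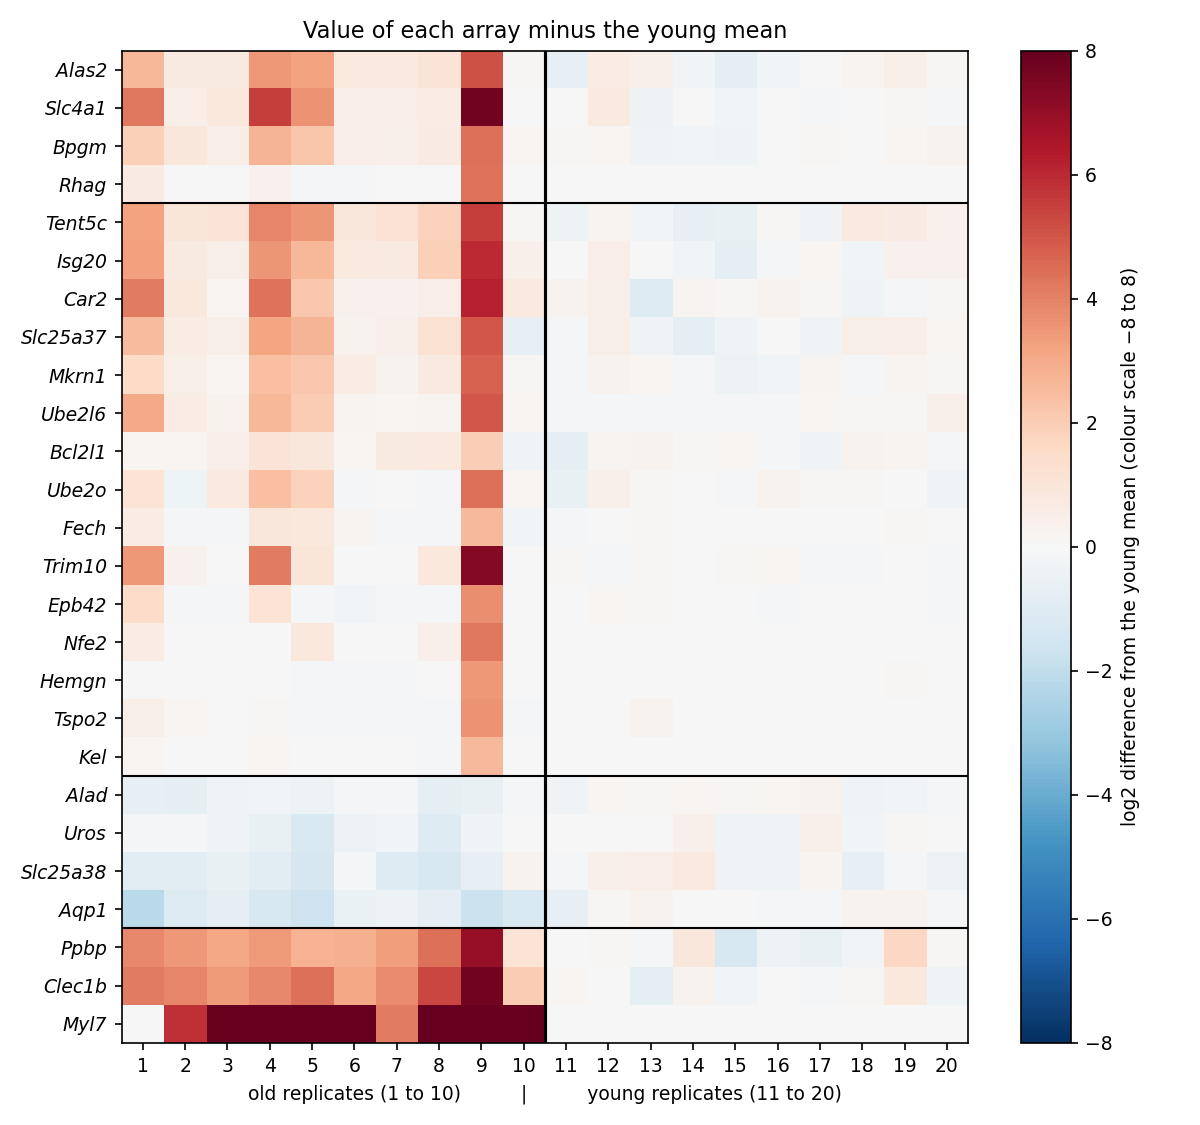
Log2 value of each array minus the young mean of the gene (colour), for 26 genes (vertical) in old replicates 1 to 10 and young replicates 11 to 20 (horizontal); lines separate the members, the red cell genes that were higher or high in single old arrays, the 4 lower red cell genes, and Ppbp, Clec1b and Myl7 for comparison, and differences above 8 take the end colour. Columns 1, 4, 5 and 9 are darkest for Alas2, Slc4a1, Bpgm and most red cell genes that were higher, Hemgn, Tspo2 and Kel stand out in column 9, and Myl7 is at the young level in column 1 (2.36).

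The genes most like the members were sought over all 20 arrays, by the mean over the 4 members of Pearson's r of residuals from the group means. Among 9718 genes with a value above 4 in at least 4 arrays, the 10 highest were Mkrn1 (0.93), Fech (0.93), Isg20 (0.92), Ube2l6 (0.92), Slc7a5 (0.92), Rsad2 (0.92), Trim10 (0.90), Slc25a37 (0.90), Ube2o (0.90) and Hbb-b2 (0.90). Of the 10, 8 were in the wider red cell lists, which held 0.37% of the genes ranked. Those lists were drawn up with earlier results of these data known, so this count is not independent of those results. Slc7a5 and Trim10 exceeded 4 in old arrays alone, so they were ranked only because of the arrays where they were high. Slc7a5, a subunit of a large amino acid transporter, and Rsad2, an interferon-induced antiviral protein, were not in the wider lists. The measure is a description that the high old arrays dominate. Without replicate 9 the 10 values over the 4 members lay between 0.76 for Ube2o and 0.88 for Ube2l6, with Rhag below 4 in every array left. Over Alas2, Slc4a1 and Bpgm they lay between 0.82 for Trim10 and 0.95 for Mkrn1. Without all 4 high arrays, and over Alas2, Slc4a1 and Bpgm, they lay between -0.04 for Slc7a5 and 0.68 for Slc25a37.

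Relatives of the members that other tissues use did not have old replicates 1, 4, 5 and 9 as their 4 highest arrays. Alas1, the form of the enzyme that most cells use, ran from 10.06 to 11.25 in old and from 10.57 to 11.18 in young arrays (difference -0.10, limma adjusted p = 0.655). Slc4a2, an anion exchanger of many tissues, was higher by 0.69 (SE 0.21, limma adjusted p = 0.0283), and its 4 highest arrays were old replicates 3, 4, 5 and 6. That call was lost under quantile normalization, with the atrial index (0.63), without the 7 old arrays with Myl7 above 10 (0.25), without replicates 1, 4, 5 and 9 (0.67) and without old 3, 4 or 5 or young 11. Slc4a3, the cardiac exchanger, was at -0.01 (limma adjusted p = 0.977). Pgam1, a glycolytic mutase related to Bpgm, rose by 0.81 (SE 0.11, limma adjusted p = 2.65e-05), with all 10 old arrays above every young one and the old range of 9.15 to 9.89 narrow beside that of Bpgm. Its 4 highest arrays were old replicates 4, 5, 8 and 9. The Pgam1 call was lost without the 7 old arrays with Myl7 above 10 (0.49, limma adjusted p = 0.0839). Pgam2, the muscle form, had a difference of -0.31 (limma adjusted p = 0.0644, and 0.00759 with the array sets as a block). Rhbg and Rhcg, relatives of Rhag in kidney and liver, lay at the floor in all arrays.

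Markers of other blood cells also moved with age, and their part in the members' values was not tested. All 5 tested platelet genes were higher in old hearts by limma, of 10 measured: Clec1b by 4.16 (SE 0.45, adjusted p = 2.05e-06), Ppbp by 3.53 (SE 0.48, adjusted p = 2.65e-05), Gp1bb by 3.23 (SE 0.49, adjusted p = 8.31e-05), Tubb1 by 1.99 (SE 0.44, adjusted p = 0.00323) and Pf4 by 1.53 (SE 0.26, adjusted p = 0.000354). Over all tested genes 11.2% were higher. Clec1b exceeded 4 in 10 old and 0 young arrays and Gp1bb in 10 and 1, so they passed the filter through the old arrays. The mean of the 5 platelet genes lay between 6.14 and 11.24 in old and between 4.47 and 5.69 in young arrays. That this mean did not overlap between the ages was thus partly fixed by the filter. From the top the old arrays were replicate 9 at 11.24, 8 at 8.47, 1 at 8.24, 5 at 7.98, 2 at 7.66 and 4 at 7.59, so that replicates 9, 1 and 5 were among the highest for both, and replicate 8 was high for the platelet genes with Alas2 at 9.18. Over all 10 platelet genes the mean was 4.28 to 8.32 in old and 3.44 to 4.13 in young arrays, and 1 of them never exceeded 4.

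Of 11 neutrophil genes measured, 3 of 4 tested were higher by limma: Lcn2 by 2.25 (SE 0.29, adjusted p = 1.42e-05), S100a9 by 2.45 (SE 0.62, adjusted p = 0.00839) and S100a8 by 2.24 (SE 0.58, adjusted p = 0.00874). Lcn2 exceeded 4 in 10 old and 0 young arrays, so it passed the filter through the old arrays. The mean of the 11 was 3.48 to 4.52 in old and 2.81 to 3.79 in young arrays, and 6 of them, among them the granule genes Mpo, Elane, Camp and Ltf, never exceeded 4. Replicates 5, 9 and 1 had 4.52, 4.36 and 4.34, and replicate 4 had 3.69. The mean of the 4 tested genes was highest in the same 3 arrays, at 8.07, 7.24 and 7.11, followed by 6.21 in replicates 4 and 6. Of 7 B cell genes the 1 tested, Ighm, was higher by 1.79 (SE 0.31, limma adjusted p = 0.0003), 4 never exceeded 4, and the mean was 3.28 to 4.17 in old and 2.98 to 3.28 in young arrays. It was 4.17 in replicate 8 and 4.16 in replicate 9, and 3.31, 3.30 and 3.37 in replicates 1, 4 and 5.

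The T and NK cell genes were high in replicate 8, where the mean of the 7 was 5.94, and lay between 2.65 and 2.82 in replicates 1, 4, 5 and 9. The 9 genes of dividing cells had means of 2.97, 2.95, 2.95 and 3.79 in replicates 1, 4, 5 and 9 and of 5.85 in replicate 8, and 6 of them were never above 4 in these 4 arrays. None of them passed the filter, and Mki67, the proliferation antigen, was at 8.28 in replicate 8 and 7.23 in replicate 9, against at most 3.41 in the other old arrays. Ccnb2, a mitotic cyclin, was at 6.17 and 4.46 in these arrays. The young means ran from 2.98 to 3.53.

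Atrial transcripts and the members were high together in some old arrays and not in others. Replicates 4, 5 and 9 had Myl7 at 14.27, 13.27 and 14.26, and replicates 2 and 7, with low Alas2, had Myl7 at 8.27 and 6.58. Old replicate 1 had Alas2 at 10.82 with Myl7 at 2.36, while old replicates 6 and 10 had Myl7 at 14.34 and 14.55 with Alas2 at 8.92 and 8.21. Both tested atrial genes were higher in old hearts by limma, Myl4 by 7.37 (SE 1.12, adjusted p = 8.7e-05) and Nppa by 2.71 (SE 0.57, adjusted p = 0.00213). The mean of the 4 atrial genes was 4.78 to 14.46 in old and 4.61 to 5.40 in young arrays. Without the 7 old arrays with Myl7 above 10, which leaves 3 old arrays, the difference was 1.39 for Alas2, 1.76 for Slc4a1, 1.08 for Bpgm and 0.20 for Rhag, and 3 wider genes passed limma, Tent5c higher and Aqp1 and Fbxo7 lower. With an index of atrial transcripts in the fit, the differences were 1.55, 1.88, 1.14 and 0.08, and 4 wider genes passed, 0 higher and 4 lower (Alad, Aqp1, Fbxo7 and Slc25a38). In that fit Tent5c was at 1.96, Isg20 at 1.59, Car2 at 1.52, Slc25a37 at 1.39, Ube2l6 at 1.19, Mkrn1 at 0.83 and Bcl2l1 at 0.52, with limma adjusted p from 0.119 to 0.431.

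**Figure D4:**
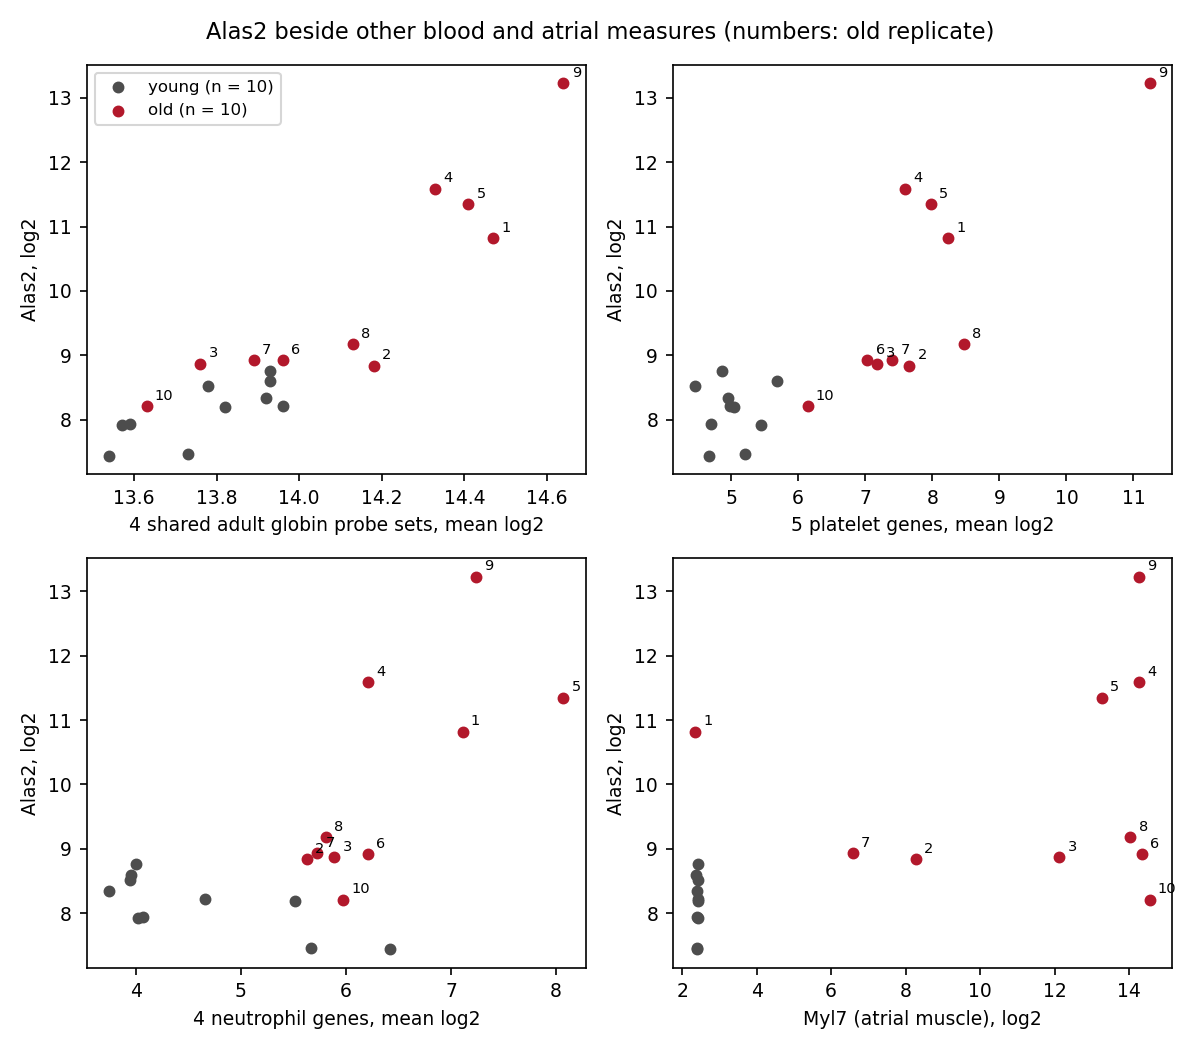
Log2 value of Alas2 (vertical axes) against the mean log2 value of the 4 shared globin probe sets, of 5 platelet genes and of 4 neutrophil genes, and against Myl7 (horizontal axes), with 1 point per array, old in red with its replicate number and young in grey (n = 10 each). Replicates 1, 4, 5 and 9 are also the highest arrays for the mean of the globin probe sets, from 14.33 to 14.64. Myl7 was at 2.36 in replicate 1 and at 14.27, 13.27 and 14.26 in replicates 4, 5 and 9.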

How the data were processed

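Groups and replicate numbers of the 20 arrays come from the sample titles. The series' design text names both ages young; titles and protocols were followed instead. The deposited table holds 1 log2 value per probe set and array; per the submitters' processing notes the authors used GCRMA, whose version is not given in the sources used here, and base 2 was read from the range of the values. GCRMA estimates background from probe sequence and makes arrays comparable, and undetected probe sets end at a low floor. Of 45101 probe sets, 64 are controls, 34945 had 1 gene in the platform annotation, 932 several and 9160 none; 34741 matched the RefSeq gene table (GRCm38.p6), used for current names.

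Probe sets above 4 on 10 arrays or more passed, and the brightest passing probe set on average stood for its gene (9275 genes). Old was compared with young by limma 3.58.1 (R 4.3.3, lmFit and eBayes), Benjamini-Hochberg adjusted over all genes, at 0.05. The SE of the members comes from the SDs of both age groups, and every other SE is that of this fit. The script was tested on simulated data. Permutation tests and summaries used Python 3.11.15 and SciPy 1.17.1.

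The members, lists and tests were chosen with earlier results of these data known. Named genes were the members, up to 12 called wider genes by p, up to 4 not called by size of difference, the paralogs, the 10 most like genes, and up to 4 genes of each marker list by p; Tubb1, Mki67, Ccnb2, Fbxo7 and the red cell genes said so in the text were added after their values were seen, as were genes named at the floor. The Hba-a1 probe set was at the floor and Hbb-b1 was not analysed here. Other settings were quantile normalization, median centring, 2 other filters, the mean of probe sets, trend and robust options, array weights, the 5 array sets as a block, an atrial index of Myl7 and Sln, and omission of arrays. The array sets were found on the same values, so a block of them can give p-values that are too small, which was not tested.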

Additional observations from a re-analysis of the deposited data

Results flagged for a closer look

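Among 56 checks of 1 gene in 1 age group of 10 arrays, 8 had an array whose gap to the next one, divided by the whole range, exceeded Dixon's critical value. Chance marks about 1 in 20 groups, and the red cell genes share arrays, so the 8 are not independent.

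Old replicate 9 was set apart for 5 genes. Rhag was at 6.79 there against 3.15 in the next old array. Mkrn1 was at 12.96 against 10.65, Blvrb at 9.31 against 6.79, Fech at 12.47 against 10.81 and Hbb-b2 at 6.88 against 6.00. Of the other cases, 1 was a member: Slc4a1 was at 5.96 in young replicate 12, against 5.28 in the next young array. Aqp1 was at 10.39 in young replicate 11, below the next young value of 10.89. Pgam2 was at 11.29 in old replicate 8, below the next old value of 12.02.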

How the results depend on the processing

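The differences of Alas2, Slc4a1 and Bpgm kept their direction under every setting run, and leaving out single arrays gave 1.49 to 2.05, 1.82 to 2.68 and 1.12 to 1.59. That of Rhag ran from 0.08 to 0.57 and turned to -0.04 without old replicates 1, 4, 5 and 9. A filter at 6 gave no value for Slc4a1 and Rhag, which it removed. No named gene changed its direction past the threshold.

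Over all genes 1732 passed, and 4345 without a filter, 3344 with the array sets as a block, 347 with the atrial index, 272 without the 7 old arrays with Myl7 above 10 and 1023 without old replicates 1, 4, 5 and 9; single omissions gave 1391 to 1830. The share of called genes that were higher was 59.9%, and 43.2% after quantile normalization and 68.6% after median centring. Of the 34 wider genes 11 passed, and 4 with the atrial index, 3 without the 7 arrays and 3 without the 4 arrays; the block gave 16 and single omissions 5 to 12. Of the blood cell, dividing cell, atrial and ventricular markers 11 passed, also under each single omission, and 6 passed at a filter of 6 and 7 with the atrial index or without the 7 arrays. With rank correlation 1 young relation passed in place of 0, that of Bpgm with the globin probe sets. The cause of these changes was not tested, beyond the fewer arrays or the other number of genes tested. No paired analysis was possible because the old and young arrays share no replicate number; the array sets, found from the values, served as the block above. Values near the floor of 2 to 3 carry no order, and those of the globins, in the upper part of the scale, may be compressed, which was not tested.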
